A study of Mus musculus with 6 samples.

Results

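The endoplasmic reticulum (ER) chaperones described here are 10 genes of protein folding in the secretory pathway: Hspa5, Hsp90b1, Calr, Canx, Pdia3, Pdia4, Dnajb9, Dnajc3, Xbp1 and Creld2. Every probe set annotated with exactly 1 gene symbol, that of one of these genes, was taken, which gave 26 probe sets of the 45037 on the array that are not array controls. All 10 genes had at least 1 probe set bright enough to be tested, and 25 of the 26 probe sets were tested. The signals come from total liver RNA of male mice aged 3 weeks, hybridised to 1 Affymetrix array per mouse. The 3 mutant mice were Srf loxP/loxP AlfpCre and the 3 control mice were Srf loxP/+ AlfpCre, so that both groups carried the Cre transgene and at least 1 loxP-flanked copy of Srf. Srf encodes serum response factor, a transcription factor of cytoskeletal and immediate early genes. AlfpCre is driven by albumin and alpha-fetoprotein regulatory elements, so cells of liver that do not use these elements keep Srf. The design text describes the mutant tissue as lacking Srf. The question is how the levels of these transcripts in mutant livers compare with those in control livers.

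The hepatocyte secretes most plasma proteins, and these are folded in the ER before export. HSP70 and HSP90 family chaperones bind unfolded chains there, calreticulin and calnexin bind chains that carry a trimmed sugar tree, and protein disulfide isomerases form and rearrange disulfide bonds. When unfolded chains accumulate, the sensors IRE1, ATF6 and PERK start the unfolded protein response, in which ATF6 and spliced XBP1 raise transcription of most of the genes named above. ATF6 acts with NF-Y at a promoter sequence called the ER stress response element (ERSE).

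The promoters are shown because exact ERSE letters were found in 6 of the 10 genes. The sequences are RefSeq promoter windows of build GRCm38.p6, searched on both strands over the 250 bases before each annotated start site. The letters searched were CCAAT and CCACG with 9 bases of any kind between them. Of all 32851 promoter windows of this length, 0.113% held a match. Each line below runs 5′ to 3′ on the strand of the gene, with the ERSE letters in capitals.
Hspa5, chr2:34772013-34772055, plus strand: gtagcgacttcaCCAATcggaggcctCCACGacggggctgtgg
Hsp90b1, distal match, chr10:86705626-86705668, minus strand: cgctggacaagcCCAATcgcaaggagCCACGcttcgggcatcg
Hsp90b1, proximal match, chr10:86705521-86705563, minus strand: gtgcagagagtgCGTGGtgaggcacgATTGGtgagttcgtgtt
Calr, chr8:84847063-84847105, minus strand: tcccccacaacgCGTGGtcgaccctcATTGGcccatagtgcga
Canx, chr11:50325788-50325830, minus strand: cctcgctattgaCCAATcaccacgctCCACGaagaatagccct
Dnajc3, chr14:118937815-118937857, plus strand: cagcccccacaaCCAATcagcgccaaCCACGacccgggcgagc
Creld2, chr15:88819508-88819550, plus strand: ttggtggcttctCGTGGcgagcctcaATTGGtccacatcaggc

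The match of Hspa5 lay 65 to 47 bases before the start site, that of Calr 162 to 144 bases and that of Canx 145 to 127 bases. Those of Dnajc3 and Creld2 lay 105 to 87 and 126 to 108 bases before it. Hsp90b1 held 2 matches, at 212 to 194 and at 107 to 89 bases. In Calr, Creld2 and the proximal match of Hsp90b1 the letters read on the opposite strand. Pdia3, Pdia4, Dnajb9 and Xbp1 held no exact match in this window. The letters CCAAT alone, which form the first 5 bases of the ERSE, were found in 9 of the 10 genes and in 33.8% of all windows. The letters ATTGG and CCACG with 1 base between them (ERSE-II) and TGACGTGG (the core of a site bound by ATF6 and XBP1) were found in none of the 10, and in 0.0304% and 0.563% of all windows. These matches describe the letters in the windows and are not measured binding sites.

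Arrays differed before any gene was considered. The array carries control probe sets at both ends of some transcripts, and a 3′ signal far above the 5′ one marks degraded or incompletely copied RNA. This 3′ to 5′ ratio was for Pcx 17.3, 6.39 and 10.5 on mutant arrays 1 to 3, against 4.94, 4.44 and 7.03 on control arrays 1 to 3. For Actb it was 5.33, 2.36 and 2.92 on the mutant arrays, against 1.91, 1.68 and 2.36 on the control arrays. Correlations of log2 signal over probe sets were 0.827 to 0.907 between mutant arrays and 0.937 to 0.941 between control arrays. Mutant 2 correlated with the 3 control arrays at 0.919 to 0.931, above its correlations with mutant 1 (0.827) and mutant 3 (0.907), whereas mutant 1 correlated with the controls at 0.781 to 0.809. Srf itself (1418256_at) had log2 signals of 4.17, 5.24 and 2.54 on mutant arrays 1 to 3, against 5.31, 5.14 and 5.11 on the control arrays, with the array labelled mutant 2 inside the control range (adjusted p = 0.398, limma). A dimmer probe set of Srf (1418255_s_at) had 3.29, 0 and 1.99 on the mutant arrays, against 3.00, 3.69 and 3.37 on the control arrays, with mutant 1 inside the control range and mutant 2 at the floor (adjusted p = 0.411, limma). The probe sets thus differ on which mutant lies among the controls, and the sources used here do not place either inside or outside the deleted exon. The hepatocyte markers were bright on every array: their summed signal on the log2 scale was 16.01 to 16.35 in mutants and 15.69 to 15.88 in controls. Of the 10 tested, 9 were higher in mutants, with a median log2 difference of 0.34. All mutant arrays lay above all control arrays for 8 of them, against 14.1% of all genes. The smallest adjusted p among them was 0.249 (limma). Albumin, the main plasma protein, had 13.30, 12.87 and 13.01 on the mutant arrays, against 12.82, 12.53 and 12.64 on the control arrays.

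None of the 10 genes passed the test in mutant against control livers. The smallest adjusted p was 0.331 (limma, two-sided, Benjamini-Hochberg over 27022 probe sets), and at an unadjusted p under 0.05 Pdia3 and Pdia4 were lower and no member was higher, as were 7.01% and 7.36% of all genes. Of all 13144 genes tested, 0.0837% were lower and 0.0304% were higher past the threshold of 0.05. By log2 difference, mutant minus control, 8 of the 10 genes were negative, as were 45.9% of all genes. Of the 8, Xbp1, Dnajc3 and Creld2 lay near 0, at -0.01, -0.01 and -0.04. Without mutant 3 these were positive, at 0.21, 0.15 and 0.07. The median was -0.18 over the 10 genes, with a range of -1.09 to 0.18, against a median of 0.06 over all genes. A log2 difference below -1 was seen for 2 of the 10 genes and for 9.11% of all genes, and one above 1 for none of the 10 and for 7.87% of all genes. All 3 mutant arrays lay below all 3 control arrays for 4 of the 10 genes (Calr, Canx, Pdia3 and Pdia4), as they did for 10.8% of all genes. For no member did all mutant arrays lie above all control arrays, as they did for 14.1% of all genes. In bulk liver RNA, fewer cells of a type and less RNA per cell cannot be told apart.

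**Figure D1:**
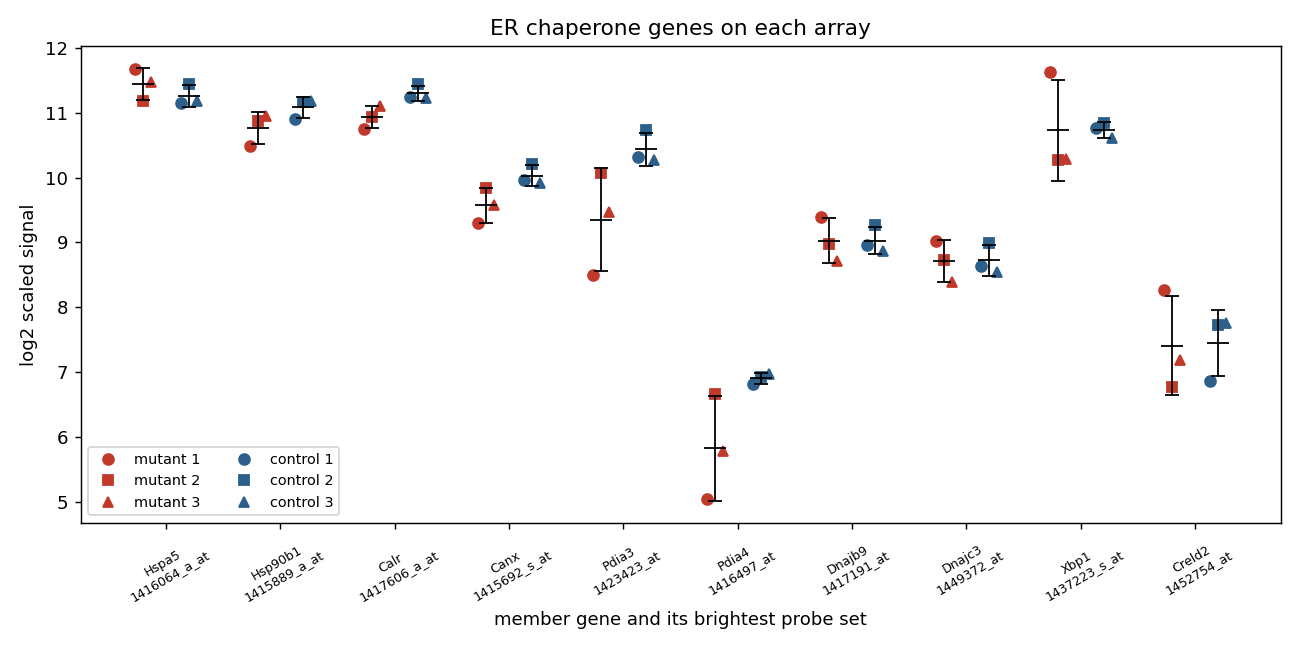
Log2 scaled signal (vertical axis) of the brightest probe set of each of the 10 genes (horizontal axis), with mutant arrays in red to the left of control arrays in blue. Symbols mark replicates 1 to 3, and bars give the mean ± SD of 3 arrays. Pdia3 and Pdia4 lie lower on all 3 mutant arrays, and mutant 1 is the highest or the lowest array for each gene, a share not counted over all genes.

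Among the general chaperones, Hspa5 encodes BiP, the HSP70 chaperone of the ER lumen, which also holds the stress sensors inactive. Its brightest probe set (1416064_a_at) gave log2 signals of 11.67, 11.17 and 11.47 on mutant arrays 1 to 3, against 11.15, 11.45 and 11.17 on control arrays 1 to 3. The groups overlapped, with mutant 2 level with controls 1 and 3. The log2 difference was 0.18 (SE 0.22, adjusted p = 0.686, limma), with a 95% interval of -0.32 to 0.69 that is not adjusted for the number of probe sets. On a linear scale the interval reached from 1.25-fold lower to 1.61-fold higher. The sign of this difference turned on the deposited scaling (-0.27), after quantile normalization (-0.05) and with arrays centred on their median (-0.05). Of the other probe sets of Hspa5, 1427464_s_at had a difference of -0.10 and the dimmer 1447824_x_at 0.47, neither past the threshold (adjusted p = 0.853 and 0.478, limma).

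Hsp90b1 encodes GRP94, the HSP90 chaperone of the ER, whose promoter holds both ERSE matches shown above. Its brightest probe set (1415889_a_at) gave 10.49, 10.87 and 10.95 on the mutant arrays, against 10.90, 11.16 and 11.18 on the control arrays. The groups overlapped only through mutant 3, which lay just above control 1. The log2 difference was -0.31 (95% interval -0.81 to 0.19, adjusted p = 0.497, limma). The other probe set (1438040_a_at) had 7.99, 9.83 and 9.11 on the mutant arrays, against 9.82, 10.36 and 9.94 on the control arrays. Mutant 1 was far below the rest there, mutant 2 was level with control 1, and the difference was -1.07 (adjusted p = 0.355, limma).

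The lectin chaperones of the glycoprotein cycle lay lower on every mutant array for their brightest probe sets, and neither passed the test. Calr encodes calreticulin, the soluble lectin chaperone and main calcium buffer of the ER lumen. On 1417606_a_at it had 10.75, 10.93 and 11.10 on the mutant arrays, against 11.23, 11.43 and 11.23 on the control arrays, a log2 difference of -0.37 (95% interval -0.83 to 0.09, adjusted p = 0.413, limma). Its 3 probe sets all had separated groups, which held for 9.36% of all probe sets in this direction. Their differences were -0.37, -0.52 and -0.92, and the largest belonged to 1433806_x_at. That probe set had 9.98, 10.29 and 10.04 on the mutant arrays, against 10.99, 11.17 and 10.91 on the control arrays. It had the smallest adjusted p of all 25 probe sets of the 10 genes, 0.193 (limma), and the 3 mutant arrays lay close together on it.

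Canx encodes calnexin, the membrane-bound partner of calreticulin. On 1415692_s_at it had 9.30, 9.84 and 9.57 on the mutant arrays, against 9.96, 10.21 and 9.91 on the control arrays. The groups did not overlap, though mutant 2 lay just below control 3, and the difference was -0.46 (95% interval -0.98 to 0.07, adjusted p = 0.389, limma). The other probe sets of Canx had differences of -1.14 (1422845_at) and -0.48 (1428935_at), both with overlapping groups. On 1422845_at mutant 2, at 8.12, lay above control 3, at 7.93.

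The disulfide isomerases had the largest differences among the 10 genes. Pdia3 encodes ERp57, the isomerase that works on glycoproteins bound to calnexin and calreticulin. On 1423423_at it had 8.51, 10.07 and 9.48 on the mutant arrays, against 10.32, 10.73 and 10.26 on the control arrays. Mutant 1 was lowest and mutant 2 lay just under the controls. The mean was 9.35 ± 0.79 in mutants and 10.44 ± 0.25 in controls (SD, n = 3), a log2 difference of -1.09 or 2.12-fold lower (95% interval -1.98 to -0.19, adjusted p = 0.331, limma). A dim probe set of Pdia3 (1445330_at) had 2.78, 4.12 and 3.07 on the mutant arrays, against 4.19, 4.65 and 4.84 on the control arrays, in the same order of mutants.

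Pdia4 encodes ERp72, an isomerase found in complexes with BiP and GRP94. On 1416497_at it had 5.04, 6.66 and 5.79 on the mutant arrays, against 6.81, 6.92 and 6.98 on the control arrays. The controls lay within a narrow range, and the mutants lay below it in the same order as for Pdia3. The mean was 5.83 ± 0.81 in mutants and 6.91 ± 0.08 in controls (SD, n = 3), a log2 difference of -1.08 or 2.11-fold lower (95% interval -1.996 to -0.16, adjusted p = 0.336, limma). The other probe set of Pdia4 (1450620_at) was the one left out as too dim, at 1.07, 0.14 and 0.80 on the mutant arrays, against 0, 2.29 and 0 on the control arrays.

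Among the mutants, Pdia3 and Pdia4 were lowest on mutant 1, which had the highest 3′ to 5′ ratios, and highest on mutant 2, which had the lowest. The ratios of mutant 2 and control 3 had no common order. On mutant 2 that of Pcx was lower (6.39 against 7.03), that of Actb nearly equal (2.36 on both) and that of Gapdh higher (0.773 against 0.756). The signals of both genes were lower on mutant 2 than on control 3. Without mutant 1 the differences of Pdia3 and Pdia4 were -0.66 and -0.68, and without mutant 2 they were -1.45 and -1.49 (adjusted p = 0.076 and 0.058, limma). With the mean of the log2 ratios as a covariate they were -0.09 and -0.20 (adjusted p = 0.969 and 0.958, limma). With array weights, which counted mutant 3 at 2.92 and mutant 1 at 0.205, both were past the threshold, at -0.95 and -1.04 (adjusted p = 0.026 and 0.025, limma). That setting called 6.80% of all genes lower and 5.77% higher, and 3086 probe sets against 20 without the weights. The part of RNA quality in these values was not tested.

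**Figure D2:**
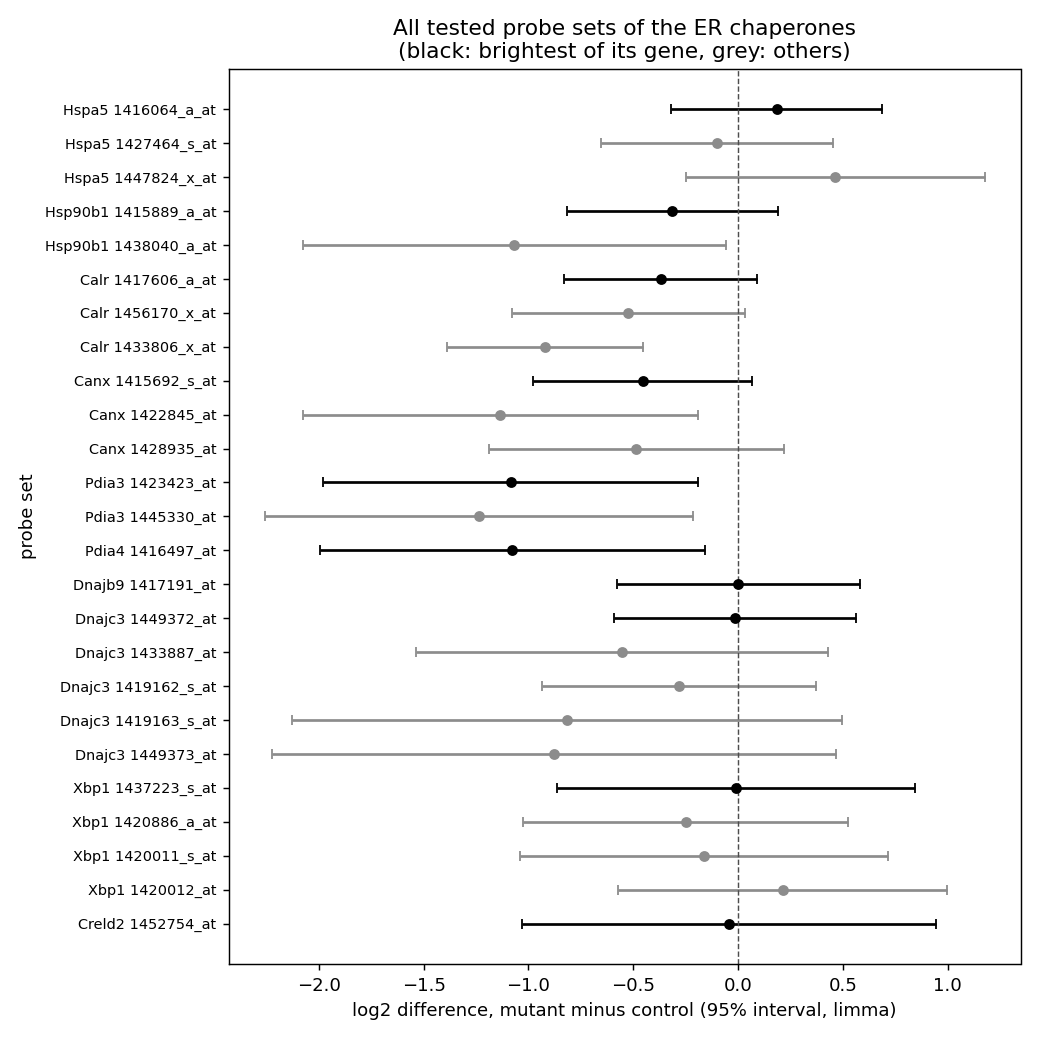
Log2 difference, mutant minus control (horizontal axis), of the 25 tested probe sets of the 10 genes (vertical axis), with the 95% interval from limma. Black points are the brightest probe set of a gene and grey points its others. Of the 25, 21 lie below 0, and the widest spreads between probe sets of a gene are seen for Dnajc3, Hsp90b1 and Canx.

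The J-domain co-chaperones of BiP had nearly equal group means on their brightest probe sets. Dnajb9 encodes ERdj4, a J-domain protein that targets misfolded chains for degradation and lets BiP act on the sensor IRE1. Its single probe set (1417191_at) gave 9.40, 8.97 and 8.72 on the mutant arrays, against 8.96, 9.27 and 8.87 on the control arrays. The mutants spread around the controls on both sides, and the difference was 0.001 (95% interval -0.58 to 0.58, adjusted p = 0.999, limma). The sign of a difference this near 0 turned on the deposited scaling (-0.45) and with arrays centred on their median (-0.23).

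Dnajc3 encodes P58IPK, a J-domain protein of the ER lumen that was first described as an inhibitor of eIF2alpha kinases. Its brightest probe set (1449372_at) gave 9.02, 8.73 and 8.39 on the mutant arrays, against 8.64, 8.996 and 8.54 on the control arrays, a difference of -0.01 (95% interval -0.59 to 0.57, adjusted p = 0.983, limma). The 5 probe sets of Dnajc3 disagreed about mutant 1. Relative to the control mean, mutant 1 lay 0.29 higher on the brightest probe set and at -2.29 on the dimmest (1449373_at), where it had 3.59 against 6.11, 5.86 and 5.68 on the control arrays. Mutant 2 lay between -0.03 and 0.37 on all 5 probe sets and mutant 3 between -0.72 and -0.32. The other probe sets had group differences of -0.55 (1433887_at), -0.28 (1419162_s_at), -0.82 (1419163_s_at) and -0.88 (1449373_at), none past the threshold. No probe set of Dnajc3 had separated groups.

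**Figure D3:**
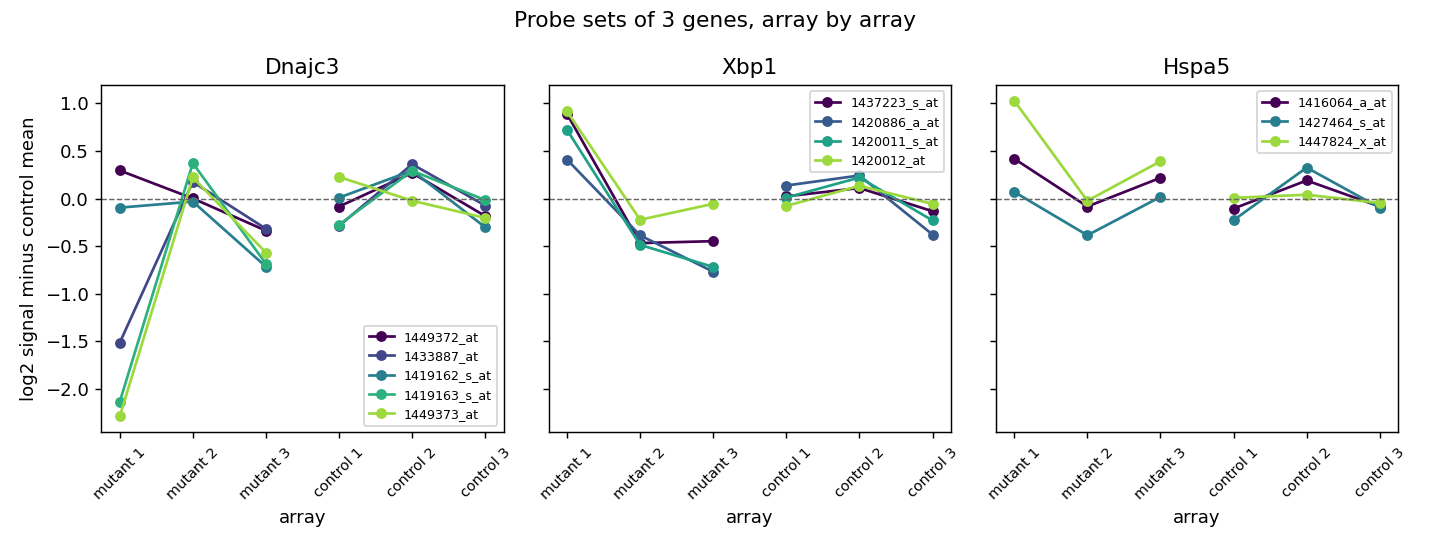
Log2 signal minus the control mean (vertical axis) on each array (horizontal axis, mutants to the left of controls) for the tested probe sets of Dnajc3, Xbp1 and Hspa5. Lines join the points of a probe set within a group. On mutant 1 the probe sets of Dnajc3 range from -2.29 to 0.29, whereas the 4 of Xbp1 all lie above the control mean, between 0.41 and 0.92.

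The stress-regulated members Xbp1 and Creld2 had similar means in both groups and a high signal on mutant 1. Xbp1 encodes the transcription factor that IRE1 activates by splicing its mRNA, and is a regulator of chaperones, not a chaperone. A signal per probe set does not give the spliced share. Its brightest probe set (1437223_s_at) gave 11.62, 10.27 and 10.29 on the mutant arrays, against 10.76, 10.85 and 10.60 on the control arrays. Mutant 1 lay above all controls, and mutants 2 and 3 lay below all controls. The difference was -0.01 (95% interval -0.86 to 0.84, adjusted p = 0.993, limma), and it was -0.46 without mutant 1. The other 3 probe sets of Xbp1 also placed mutant 1 above all controls, with differences between -0.25 and 0.21.

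Creld2 encodes a calcium-binding ER protein with disulfide isomerase activity that is induced by ER stress. Its single probe set (1452754_at) gave 8.27, 6.78 and 7.19 on the mutant arrays, against 6.87, 7.74 and 7.76 on the control arrays. Controls themselves differed here, with control 1 well below the other two, and mutant 1 was the highest array. The difference was -0.04 (95% interval -1.03 to 0.95, adjusted p = 0.969, limma).

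Array mutant 1 stood at an end of the range for every member, a share that was not counted over all genes. This array correlated least with the others, at 0.781 to 0.862. It was the highest of the 6 arrays for 5 genes (Hspa5, Dnajb9, Dnajc3, Xbp1 and Creld2) and the lowest for the other 5 (Hsp90b1, Calr, Canx, Pdia3 and Pdia4), on their brightest probe sets. The median over the 10 genes, relative to the control mean, was -0.12 on mutant 1, -0.23 on mutant 2 and -0.32 on mutant 3. Mutant 1 also had the highest 3′ to 5′ ratios, and the part of RNA quality in this split was not tested.

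None of the 25 probe sets passed the threshold, against 0.0592% of all probe sets lower and 0.0148% higher. Over the 25 the median difference was -0.37, against 0.08 over all probe sets tested. Groups were separated with mutants lower for 7 of the 25, against 9.36% of all probe sets, and with mutants higher for none, against 13.8%. The 7 belonged to Calr, Canx, Pdia3 and Pdia4, the genes with separated groups named above. Probe sets of the same gene are not separate observations. At an unadjusted p under 0.05, 6 of the 25 were lower and none was higher, against 6.18% and 7.60% of all probe sets (limma).

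Other genes of ER folding were read from the same fit. Among 9 other members of the ER HSP70 system none passed the test, 6 were negative, and the median was -0.26. Sdf2l1, an ER protein of BiP complexes that is induced by ER stress, had 5.25, 4.79 and 4.79 on the mutant arrays, against 6.11, 6.94 and 6.003 on the control arrays, a difference of -1.41 (adjusted p = 0.231, limma). The groups of Sdf2l1 were well apart. Dnajb11, another J-domain partner of BiP, had a difference of -0.47 with overlapping groups (adjusted p = 0.417, limma).

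Of 15 other disulfide isomerases and oxidases tested none passed, 11 were negative and 4 positive, and the median was -0.42. Groups were separated with mutants lower for 5 and higher for 1, against 10.8% and 14.1% of all genes. Pdia6, an isomerase that binds BiP and attenuates IRE1 and PERK, had 7.71, 8.66 and 8.06 on the mutant arrays, against 9.63, 9.75 and 9.38 on the control arrays, a difference of -1.44 (95% interval -2.10 to -0.79, adjusted p = 0.151, limma). Mutant 1 was lowest and mutant 2 highest among mutants, as for Pdia3 and Pdia4. Prdx4, a peroxiredoxin of the ER, had a difference of -1.02 (adjusted p = 0.292, limma).

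In the glycoprotein folding cycle none of 13 genes passed, 10 were negative and the median was -0.27. Edem2, which trims mannose from misfolded glycoproteins, had a difference of -0.63, and Mogs, the glucosidase that removes the first glucose, one of -0.60 (adjusted p = 0.326 and 0.373, limma). Among 27 genes of the translocon, signal peptidase and oligosaccharyl transfer none passed, 20 were negative and the median was -0.18. Tram1, a translocating chain-associated protein, had a difference of -1.12, and Ssr2, a subunit of the translocon-associated complex, one of -0.90 (adjusted p = 0.292 and 0.287, limma). Groups were separated with mutants lower for 8 of these 27, against 10.8% of all genes, and with mutants higher for none, against 14.1%.

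The list of ER-associated degradation had the opposite sign of median, 0.21 over 16 genes, of which 11 were positive and none passed. Selenos, a selenoprotein of the retrotranslocation complex, had 9.86, 9.72 and 10.11 on the mutant arrays, against 8.99, 9.19 and 9.21 on the control arrays, a difference of 0.76 (adjusted p = 0.285, limma). Derl2, a channel subunit of the same process, had a difference of -0.85 (adjusted p = 0.299, limma). Both had separated groups, in opposite directions.

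Sensors and regulators of ER stress had a median of -0.03 over 15 genes, and none passed. Atf6, the sensor that is cleaved to a transcription factor, had 7.62, 7.54 and 7.52 on the mutant arrays, against 6.77, 6.90 and 6.83 on the control arrays. All mutant arrays of Atf6 lay close together above the controls, with a difference of 0.73 (adjusted p = 0.292, limma). Ern1, which encodes the sensor IRE1alpha, had 6.20, 7.62 and 7.40 on the mutant arrays, against 8.27, 8.37 and 7.91 on the control arrays, a difference of -1.11 (adjusted p = 0.326, limma). In the arm downstream of PERK the median was 0.35 over 12 genes, 9 of them positive, and none passed. On mutants 1 to 3 the median of that list relative to controls was 1.12, 0.05 and 0.22. Atf3, a stress-induced transcription factor, averaged 4.87 in mutants and 2.79 in controls (adjusted p = 0.296, limma). The control mean lay just below the background estimate of 2.87. The mutant mean was 4.02-fold above that estimate, a value that leaves out the spread between arrays. Chac1, a glutathione-degrading enzyme induced by ATF4, had a difference of -0.91 (adjusted p = 0.309, limma).

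**Figure D4:**
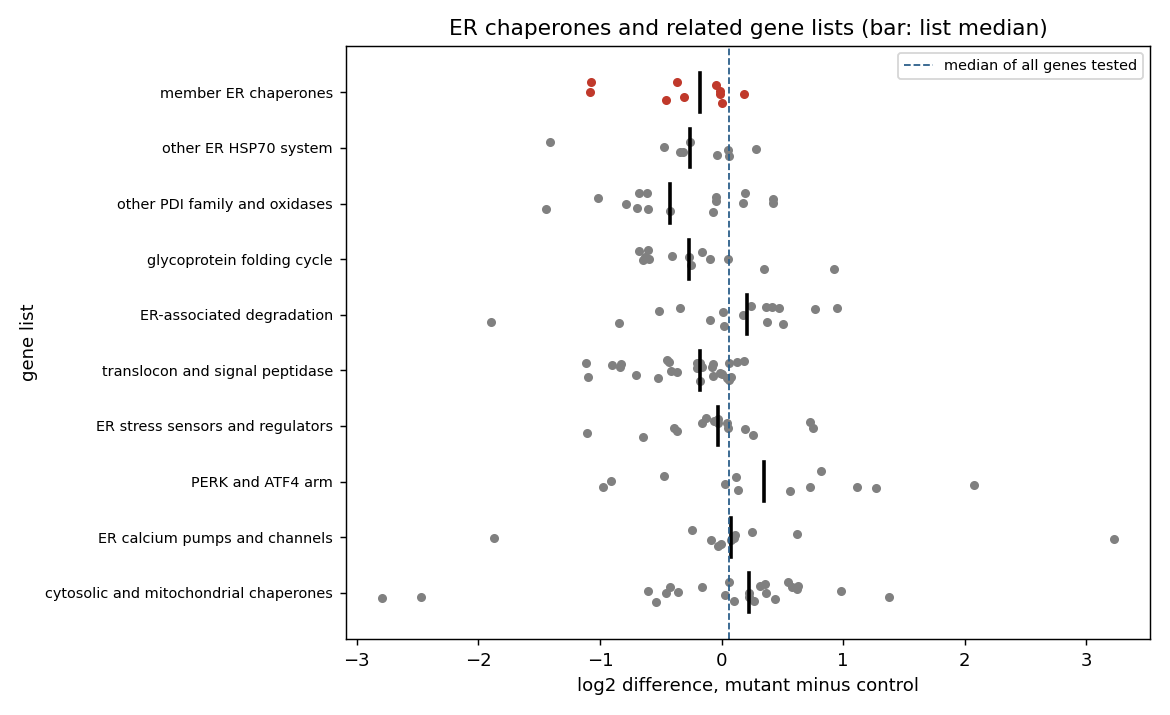
Log2 difference, mutant minus control (horizontal axis), of each tested gene in the ER chaperones (red) and 9 related gene lists (grey), one list per row. Black bars are list medians and the dashed line is the median of all genes tested, 0.06. The medians range from -0.42 for the other disulfide isomerases and oxidases to 0.35 for the PERK and ATF4 arm.

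Besides the 6 members, 29 genes held the exact ERSE letters in their promoter window, and 9 of these were tested on the array. None of the 9 passed, 6 were negative and the median was -0.51. Groups were separated with mutants lower for Pdia6, Ero1b (an oxidase of the ER, -0.69) and Derl3 (another channel subunit of ER-associated degradation), and with mutants higher for Pan2 (a subunit of an mRNA deadenylase, 0.79). Over all genes the shares so separated were 10.8% and 14.1%. Derl3 had 4.47, 0.84 and 4.67 on the mutant arrays, against 4.77, 5.97 and 4.92 on the control arrays. Its difference was -1.90 (adjusted p = 0.394, limma), and it was -0.65 without mutant 2, which lay below the background estimate. This set was assembled after the values of the members had been seen.

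Markers of B and plasma cells, a cell type rich in ER chaperones, were dim. Of 12 markers 10 had a probe set, and for 5 of these both group means lay below the background estimate. Their summed signal on the log2 scale was 5.79 to 6.39 in mutants and 6.21 to 6.51 in controls. Of the 6 tested, 4 were negative and 2 positive, with a median log2 difference of -0.98, and none passed. Groups were separated with mutants lower for 3 of the 6, against 10.8% of all genes, and with mutants higher for none, against 14.1%. Markers of stellate cells, which secrete collagen, had a summed signal of 9.86 to 11.8 in mutants and 11.6 to 11.7 in controls, lowest on mutant 1. All 10 stellate markers were tested, none passed, and 8 were negative with a median of -1.01. Kupffer cell and macrophage markers had a summed signal of 10.1 to 10.8 in mutants and 10.7 to 11.2 in controls, with 8 of 10 negative and none past the threshold. Markers of pancreatic acinar cells, another secretory cell type, had a summed signal of 7.28 to 7.93 in mutants and 8.26 to 9.05 in controls, without overlap. Of their 6 measured markers, Cpa1 and Ctrb1 were below the background estimate in both groups. Of the 4 tested, 3 were positive and 1 negative, and none passed. Their median log2 difference was 0.59, against the direction of the sum. Cela1 was 5.54 to 7.35 in mutants and 8.02 to 8.94 in controls, and Cela2a was 5.60 to 6.66 in mutants and 3.98 to 4.42 in controls, in the opposite direction. The part of these cell types in the values of the 10 genes was not tested.

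Genes with the profile most like that of Hspa5 over the 6 arrays were Ceacam15, Trmt61a, Ctps, Rnd2 and Snx11, with Pearson correlations of 0.989 to 0.996 among 13143 other genes. For Dnajb9 they were Zfand2a, Dnajc3, Aqr, Tmem39a and Cdc34, with 0.966 to 0.989. The 6 points share 2 groups and the quality differences between arrays described above.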

How the data were processed

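The authors deposited a linear intensity for every probe set on each array. GCOS, Affymetrix software, is named in the submitters' processing notes; the sources used here state neither its algorithm nor its scaling. Titles gave the groups, with 3 mice in each. Depth does not apply to arrays; their number limits the precision.

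Symbols came from the platform annotation, updated through Entrez identifiers. Arrays were scaled to a common mean after trimming 2% at each end, because the deposited trimmed means (37.3 to 69.9) differed by more than 5%. Values below 1 were raised to 1 before taking log2. Probe sets in the dimmest 40% were not tested. A gene was represented by its brightest probe set. Scaling hides any shift common to most transcripts. Groups were compared with limma 3.58.1 (lmFit, eBayes with trend) in R 4.3.3, two-sided, with Benjamini-Hochberg adjustment over 27022 probe sets and a threshold of 0.05. Background was the 95th percentile of 83 probe sets of olfactory, vomeronasal and taste receptors, a log2 signal of 3.04 in mutants and 2.87 in controls. A fold given as at least a value is the mutant mean over the background estimate of the controls.

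The members and gene lists were chosen with earlier results of these data known. Named genes were all members, Srf, in each list the 2 genes of smallest adjusted p, and the 5 genes most like Hspa5 and Dnajb9. Albumin, the acinar markers and the ERSE genes that are no members were named outside this rule after their values were seen. Probe sets ending in s_at, x_at or a_at can detect related transcripts or several transcript forms. The fit was tested on simulated data. Alternatives were the scaling, the floor, the filter, the variance prior, array weights, the 3′ to 5′ index, the replicate number as a block, probe set choice and each array left out.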

Additional observations from a re-analysis of the deposited data

How the results depend on the processing

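No member passed the threshold in 18 of 19 alternative settings, and with array weights 2 did, Pdia3 and Pdia4. The median over the members tested was below that of all genes in all 19 settings. It was -0.63 on the deposited scaling (all genes -0.39), -0.41 with arrays centred on their median (all genes -0.17), -0.56 when all probe sets of a gene were averaged and -0.042 without probe sets of a shared suffix, a setting chosen after seeing the data that tested 7 of the 10 genes (not Hspa5, Hsp90b1 or Calr). Leaving out 1 array at a time gave medians from -0.37 to -0.11 and no member past the threshold. The number of probe sets past the threshold, 20, was 35 on the deposited scaling, 107 after log2(signal + 32), 6 with a floor at 16, 11 with the lower 60% left out, 9 without the variance trend, 5 with the 3′ to 5′ index as a covariate and 3086 with array weights. With dim probe sets kept in the fit none passed (0; limma found 2876 with mutants higher and 1828 with mutants lower at unadjusted p under 0.05). The count ranged from 2 to 576 without 1 array, the highest count being that without mutant 2. Hsp90b1, Calr, Canx, Pdia3 and Pdia4 were negative in every setting that tested them, but smaller with the 3′ to 5′ index as a covariate (-0.10, -0.21, -0.087, -0.095 and -0.20). Without mutant 1 Hsp90b1 was -0.17. Signs turned for Hspa5 (-0.27 on the deposited scaling, -0.049 after quantile normalization, -0.048 with median centring, -0.035 with the 3′ to 5′ index), for Dnajb9 (-0.45 deposited, -0.23 median centring, -0.25 array weights, -0.18 index) and for Xbp1 (0.21 without shared suffixes). With 1 array left out, Dnajb9 ranged from -0.18 to 0.16, Dnajc3 from -0.11 to 0.15, Xbp1 from -0.46 to 0.22 and Creld2 from -0.47 to 0.28. Xbp1 and Creld2 lay further from 0 with the 3′ to 5′ index as a covariate, at -0.76 and -0.96 (adjusted p = 0.929 for both, limma). The causes were not tested. With the replicate number as a block, 22 probe sets and 0 members passed (limma). Same-numbered arrays correlated at -0.04, 0.02 and 0.04 in their deviations from the group means, and differently numbered ones at -0.10 to 0.08. With 3 arrays per group these values cannot decide whether the numbers paired the samples.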

Other observations

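Chaperones outside the ER had a median log2 difference of 0.23, mutant minus control, over 24 genes of the cytosol and mitochondria, 16 of them positive, and none passed the test. The heat-inducible HSP70 gene Hspa1b (1452318_a_at) went against that median, with 3.46, 7.29 and 5.96 on mutant arrays 1 to 3, against 8.20, 8.11 and 8.78 on control arrays 1 to 3 (difference -2.79, adjusted p = 0.299, limma). Hspa1a, its near-identical neighbour, had 0, 3.26 and 3.45 on the mutant arrays, against 4.52, 4.99 and 4.60 on the control arrays (adjusted p = 0.330, limma), and the 2 genes can share signal. Mutant 1 was the lowest array for both.

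Genes of ER calcium handling had a median of 0.08 over 11 genes, and none passed. Atp2a2, the calcium pump that fills the ER, had 10.23, 9.91 and 10.31 on the mutant arrays, against 9.34, 9.76 and 9.48 on the control arrays, with separated groups and a difference of 0.62 (adjusted p = 0.331, limma). Itpr3, a calcium release channel that hepatocytes express little and bile duct cells more, had 3.85, 4.12 and 3.84 on the mutant arrays, against 1.43, 0 and 0.70 on the control arrays. The control mean of Itpr3 lay below the background estimate, and the mutant mean was at least 2.10-fold above that estimate (adjusted p = 0.151, limma). The cholangiocyte markers had a summed signal on the log2 scale of 5.49 to 6.05 in mutants and 5.20 to 5.38 in controls, and their part in the Itpr3 values was not tested.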
